A study of Bos taurus with 29 samples.

Results

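The genes described here are 38 genes of extracellular vesicle formation and release, read from the count table of the bovine (Bos taurus) corpus luteum. They were listed by name for their known roles, by a rule that uses no measured value, though with earlier results of these data known. All 38 stood among the 19112 genes of the table, and all 38 were among the 18939 genes that passed the filter on low counts. They comprise 5 tetraspanins, 22 genes of the ESCRT machinery and its partners ALIX and syntenin, 7 RAB, ARF and SNARE genes, and 4 genes of sphingomyelinases and flotillins.

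Extracellular vesicles are membrane-bound particles that cells release with proteins, lipids and RNA. Those called exosomes begin as buds into a late endosome, which turns it into a multivesicular body, and are set free when that body fuses with the cell surface. Others bud from the cell surface directly. Tetraspanins organise the membrane of the vesicle. The ESCRT complexes sort cargo marked with ubiquitin and then deform and cut the membrane, and a second route uses syntenin and ALIX. Ceramide made by neutral sphingomyelinases drives budding without ESCRT, and RAB GTPases with SNARE proteins move, dock and fuse the multivesicular body. These roles were worked out mainly in human, mouse and yeast cells. The corpus luteum is the gland that forms in the ovary after ovulation and secretes progesterone, the steroid that maintains pregnancy.

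The series asks how embryo, endometrium and corpus luteum signal to each other, with small extracellular vesicles named in its title. Corpus luteum from a slaughterhouse source carried the labels CM_EE_IVF, CM_EE_AI, CM_EE and NC. EE stands for endometrial explants, which were cultured alone (EE) or together with 1 embryo of day 7, derived in vivo (AI) or by in vitro production (IVF). CM was read as medium conditioned by those explants and NC as the control, which the labels do not spell out, nor do they say whether the tissue was explants or cells, or how long it was exposed. The labels list 20 corpus luteum samples, with 2 titles per group for R4 and for R5 and 1 for R2, whereas the count table holds 12 columns, 1 per group and R number. Each column was taken as 1 library, so that each group had 3 libraries, numbered R4, R5 and R2; how the paired titles were joined is not stated. What the R numbers mark is not stated. The title prefix of the R2 samples differed from that of R4 and R5, so a separate sequencing run and R2 itself cannot be told apart. Nothing in the labels ties the libraries to animals, and p-values measure only the spread between these samples.

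The 12 libraries held 16536797 to 25747637 counts. Mitochondrially encoded transcripts took 44.4% to 48.9% of the counts in R4, 54.8% to 64.0% in R5 and 49.5% to 55.9% in R2. The 38 vesicle genes together took 0.133% to 0.157% in R4, 0.0707% to 0.0990% in R5 and 0.103% to 0.125% in R2. These shares are of all counts, mitochondrial and rRNA counts included, so those counts enter them. Transcripts of rRNA took 16.6% to 20.9% in R4, 15.9% to 19.0% in R5 and 13.8% to 19.0% in R2. As summed CPM, the vesicle genes held 1216 to 1556 in R4, 799 to 1057 in R5 and 1034 to 1336 in R2, so R2 overlapped both. Their share without mitochondrial and rRNA counts was not compared between R numbers. Luteal steroidogenic markers were present as labelled: all 11 listed genes were in the table, the lowest single value being 19 counts, and STAR, CYP11A1, HSD3B1 and LHCGR were among them. Their summed level ran from 1774 to 6569 CPM in R4, 1495 to 2212 CPM in R5 and 1534 to 2732 CPM in R2, and the top value was that of the CM_EE_AI R4 library. Levels are given as TMM-normalised CPM (read counts scaled to library size), which are not corrected for transcript length, so levels of different genes are not compared. The strand setting of the counting is not given, and whether paralogues such as RAB27A and RAB27B or VPS4A and VPS4B share reads was not tested. The CM_EE_AI R4 library stood apart: it held the highest value of the 12 libraries in 15 of the 38 vesicle genes (39.5%), beside 17.9% of all genes. In these bulk samples, fewer cells of a type and less RNA per cell cannot be told apart.

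None of the 38 vesicle genes passed the test between any 2 of the 4 medium groups. The threshold was an adjusted p of 0.05 in the edgeR quasi-likelihood test over all genes tested, and 0 of 38 vesicle genes passed it in each of the 6 comparisons, as did 0 of all 18939 genes (0%). The largest fitted differences from NC were those of CHMP1A, at 0.85 (95% interval 0.10 to 1.61) in CM_EE_IVF, and of CD9, at 0.74 (95% interval -0.83 to 2.32) in CM_EE. In this fit by group, without the R number, CHMP1A was the only vesicle gene at an unadjusted p under 0.05, in CM_EE_IVF against NC. The 95% intervals between media are from this fit, which ignores the R number, unless the replicate block is named. The genes past that looser limit numbered 281 (1.48%) in CM_EE_IVF against NC, 213 (1.12%) in CM_EE_AI against NC and 142 (0.75%) in CM_EE against NC. Between the conditioned media they numbered 285 (1.5%) in CM_EE_IVF against CM_EE, 242 (1.28%) in CM_EE_AI against CM_EE and 127 (0.671%) in CM_EE_IVF against CM_EE_AI. DESeq2 also called 0 genes in each comparison.

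Taken as values, 27 of the 38 genes had a fold change above 1 in CM_EE_IVF against NC (45.9% of all genes did), 25 in CM_EE_AI against NC (53.1% of all genes) and 24 in CM_EE against NC (46.3% of all genes). The median log2 fold change of the 38 genes was 0.10, 0.16 and 0.05 in these comparisons, beside -0.04, 0.03 and -0.03 over all genes. Of the ESCRT-III and VPS4 genes, 8 of 9 stood above NC in CM_EE_IVF, 8 of 9 in CM_EE_AI and 7 of 9 in CM_EE. Of the tetraspanins, 5 of 5 did so in CM_EE_IVF, 4 of 5 in CM_EE_AI and 2 of 5 in CM_EE, and of the ESCRT-II genes 3 of 3, 3 of 3 and 1 of 3 in the same order of media. The other roles were mixed. In CM_EE_IVF the mean CPM lay below that of NC for TSG101, VPS37A, VPS37B, SDCBP, RAB7A, RAB27A, RAB27B, YKT6, STAM and FLOT2. It lay above that of NC for VPS28, VPS37C, PDCD6IP, RAB11A, RAB35, ARF6, HGS, STAM2, SMPD2, SMPD3 and FLOT1. The 3 comparisons share the NC libraries. Without the CM_EE_AI R4 library, 19 of 38 genes and 6 of the 9 ESCRT-III and VPS4 genes stood above NC in CM_EE_AI (51.3% of all genes did), at a median of -0.02. In CM_EE_IVF against CM_EE_AI, 27 of 38 stood above 0 without that library (43.8% of all genes) and 12 of 38 with it (37.8% of all genes). The share of counts taken by the vesicle genes was 0.119% ± 0.0176 in CM_EE_IVF, 0.118% ± 0.0351 in CM_EE_AI, 0.111% ± 0.0381 in CM_EE and 0.113% ± 0.0261 in NC (SD, n = 3), with exact two-sided permutation p-values against NC of 0.9, 0.7 and 1. The smallest p that 3 against 3 libraries allow is 0.1.

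**Figure D1:**
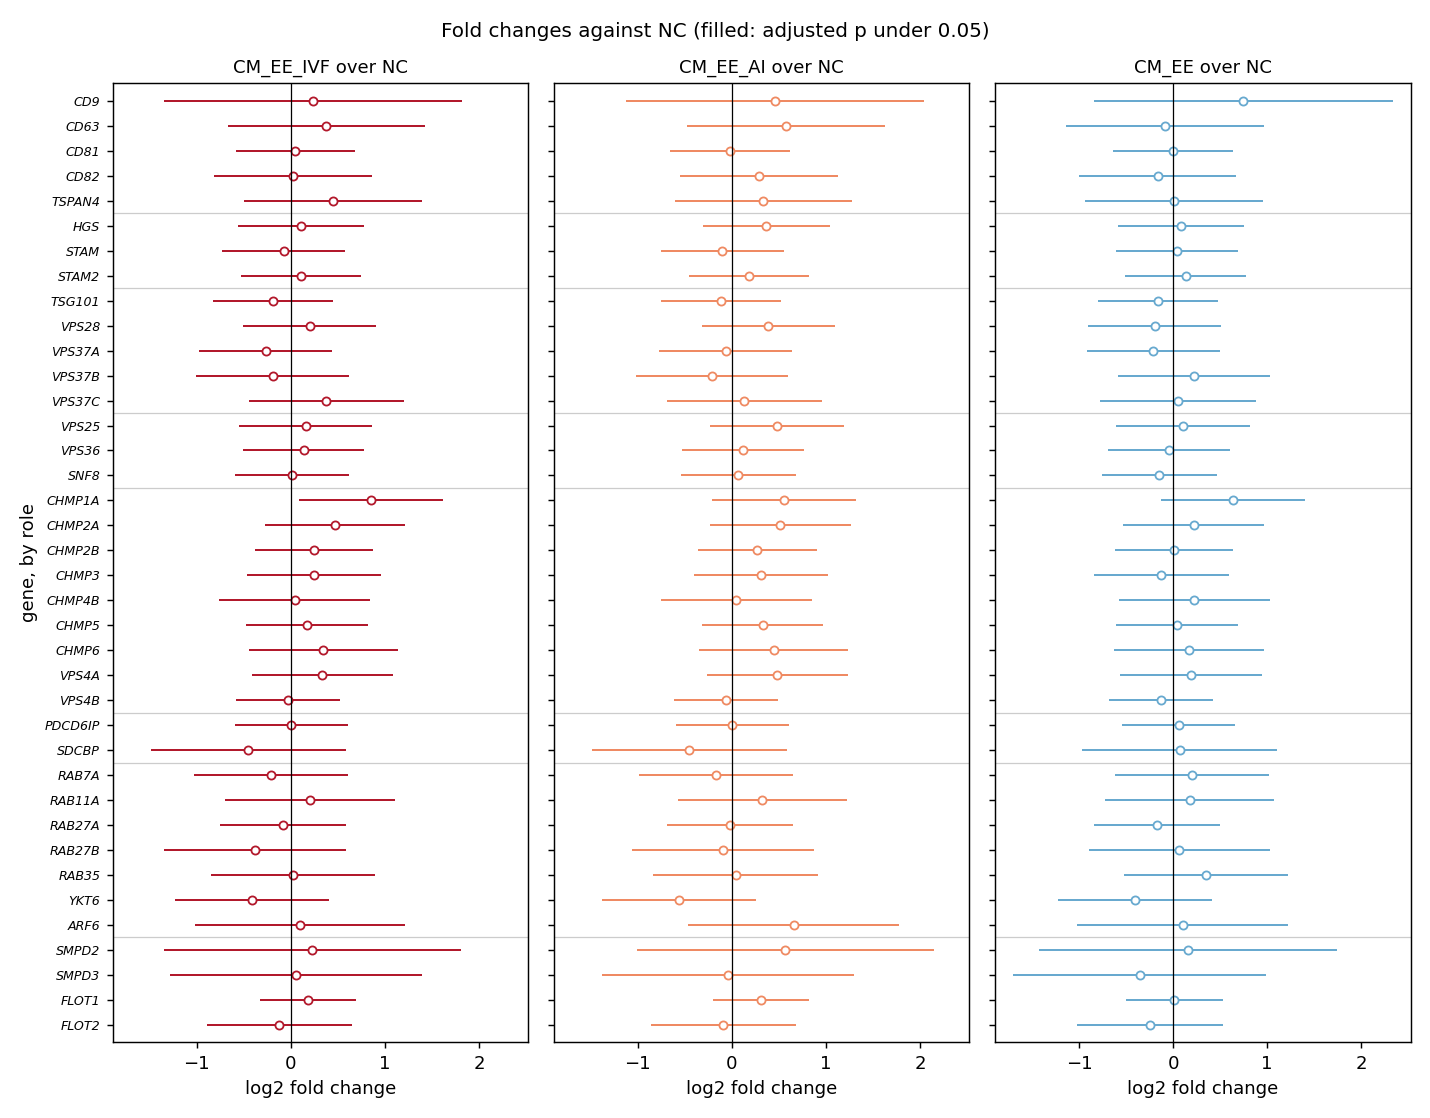
Log2 fold changes (horizontal axis) of the 38 vesicle genes in CM_EE_IVF, CM_EE_AI and CM_EE, each over NC, with 95% intervals of the edgeR fit; grey lines separate the roles. No point is filled, since no gene passed the threshold. In this fit by group, only the interval of CHMP1A in CM_EE_IVF over NC, 0.10 to 1.61, lies off 0. With the R number as a replicate block (not drawn), more intervals lie off 0. They are those of CHMP1A and TSPAN4 in CM_EE_IVF, VPS4A and SDCBP in CM_EE_AI, and CHMP1A and CD9 in CM_EE.

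CHMP1A, an ESCRT-III subunit that takes part in recruiting the VPS4 ATPase, had the lowest p of the vesicle genes in each comparison with NC. It had 5.41, 6.68 and 7.14 CPM in CM_EE_IVF, 3.79, 6.97 and 4.89 CPM in CM_EE_AI, 5.89, 4.74 and 5.88 CPM in CM_EE, and 3.22, 4.92 and 2.51 CPM in NC, the 3 values of a group being those of R4, R5 and R2. All 3 CM_EE_IVF libraries lay above all 3 NC libraries, whereas the CM_EE_AI and CM_EE libraries overlapped NC. Libraries of CM_EE_IVF and NC did not overlap for 1085 genes (5.73%), and among the 38 vesicle genes CHMP1A was the one with that pattern. The log2 fold change in CM_EE_IVF against NC had an unadjusted p of 0.0297 and an edgeR adjusted p of 1.00. Within R numbers it was 0.73 in R4, 0.44 in R5 and 1.47 in R2. With the R4 and R5 libraries alone it was 0.59 and no longer under an unadjusted p of 0.05. No vesicle gene was under that limit in fits that left out NC R4, NC R2, CM_EE_IVF R5 or CM_EE_IVF R2. CHMP1A had 50 to 168 counts per library.

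CHMP2A, a late ESCRT-III subunit, had 24.7, 12.5 and 24.4 CPM in CM_EE_IVF, 27.8, 19.9 and 15.8 CPM in CM_EE_AI, 23.5, 12.4 and 15.8 CPM in CM_EE, and 13.3, 16.1 and 15.1 CPM in NC. Its log2 fold change was 0.47 (95% interval -0.27 to 1.21) in CM_EE_IVF against NC and 0.51 (95% interval -0.22 to 1.25) in CM_EE_AI against NC. The R4 libraries of the conditioned media were high and the R5 library of CM_EE_IVF lay below all NC libraries. YKT6, a SNARE with a part in vesicle release in human and fly cells, had 8.28, 6.72 and 5.65 CPM in CM_EE_IVF, 7.36, 4.96 and 6.33 CPM in CM_EE_AI, 9.99, 5.67 and 5.13 CPM in CM_EE, and 13.4, 8.11 and 5.97 CPM in NC. Its fitted fold changes against NC lay below 0, at -0.41 (95% interval -1.22 to 0.39) in CM_EE_IVF, -0.56 (95% interval -1.37 to 0.25) in CM_EE_AI and -0.41 (95% interval -1.21 to 0.40) in CM_EE. The NC R4 library was the highest of the 12, and in R2 the CM_EE_AI library lay above that of NC.

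Against CM_EE, the lowest p among vesicle genes belonged to VPS28, an ESCRT-I subunit that links to ESCRT-II. It had 15.2, 11.6 and 11.9 CPM in CM_EE_IVF, 18.7, 15.5 and 9.96 CPM in CM_EE_AI, 13.6, 8.08 and 7.77 CPM in CM_EE, and 10.99, 13.8 and 8.98 CPM in NC. The log2 fold change was 0.40 (95% interval -0.30 to 1.097) in CM_EE_IVF against CM_EE and 0.59 (95% interval -0.12 to 1.29) in CM_EE_AI against CM_EE, and the libraries overlapped in both. With the R number as a replicate block these values were 0.43 (95% interval -0.08 to 0.94) and 0.58 (95% interval 0.07 to 1.09). CHMP3, which forms filaments with CHMP2A, had 23.5, 27.1 and 22.6 CPM in CM_EE_IVF, 38.05, 21.998 and 16.2 CPM in CM_EE_AI, 17.6, 22.6 and 16.4 CPM in CM_EE, and 18.4, 26.7 and 16.6 CPM in NC. Its 3 CM_EE_IVF libraries lay above those of CM_EE by a narrow margin, and 1061 of all genes (5.6%) had libraries of these groups that did not overlap. It stood at a log2 fold change of 0.37 (95% interval -0.33 to 1.08) in CM_EE_IVF against CM_EE and 0.43 (95% interval -0.27 to 1.13) in CM_EE_AI against CM_EE, and the CM_EE_AI R4 library was the highest of the 12.

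In CM_EE_IVF against CM_EE_AI, the lowest p belonged to ARF6, a small GTPase of the syntenin route and of budding at the cell surface. It had 46.6, 22.3 and 32.5 CPM in CM_EE_IVF, 96.4, 21.3 and 32.1 CPM in CM_EE_AI, 46.4, 18.1 and 37.2 CPM in CM_EE, and 35.7, 29.8 and 29.3 CPM in NC. Its log2 fold change of -0.56 (95% interval -1.67 to 0.55) became 0.34 without the CM_EE_AI R4 library. VPS25, an ESCRT-II subunit, had 10.1, 12.1 and 11.6 CPM in CM_EE_IVF, 20.5, 11.5 and 10.1 CPM in CM_EE_AI, 13.2, 9.75 and 9.61 CPM in CM_EE, and 10.3, 12.8 and 7.27 CPM in NC. Its log2 fold change of -0.32 (95% interval -1.02 to 0.38) became 0.05 without the same library. The CM_EE_AI R4 library also held the highest sum of luteal markers, 6569 CPM, whose part in these values was not tested. In CHMP1A the difference between these media was 0.30 (95% interval -0.45 to 1.04).

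**Figure D2:**
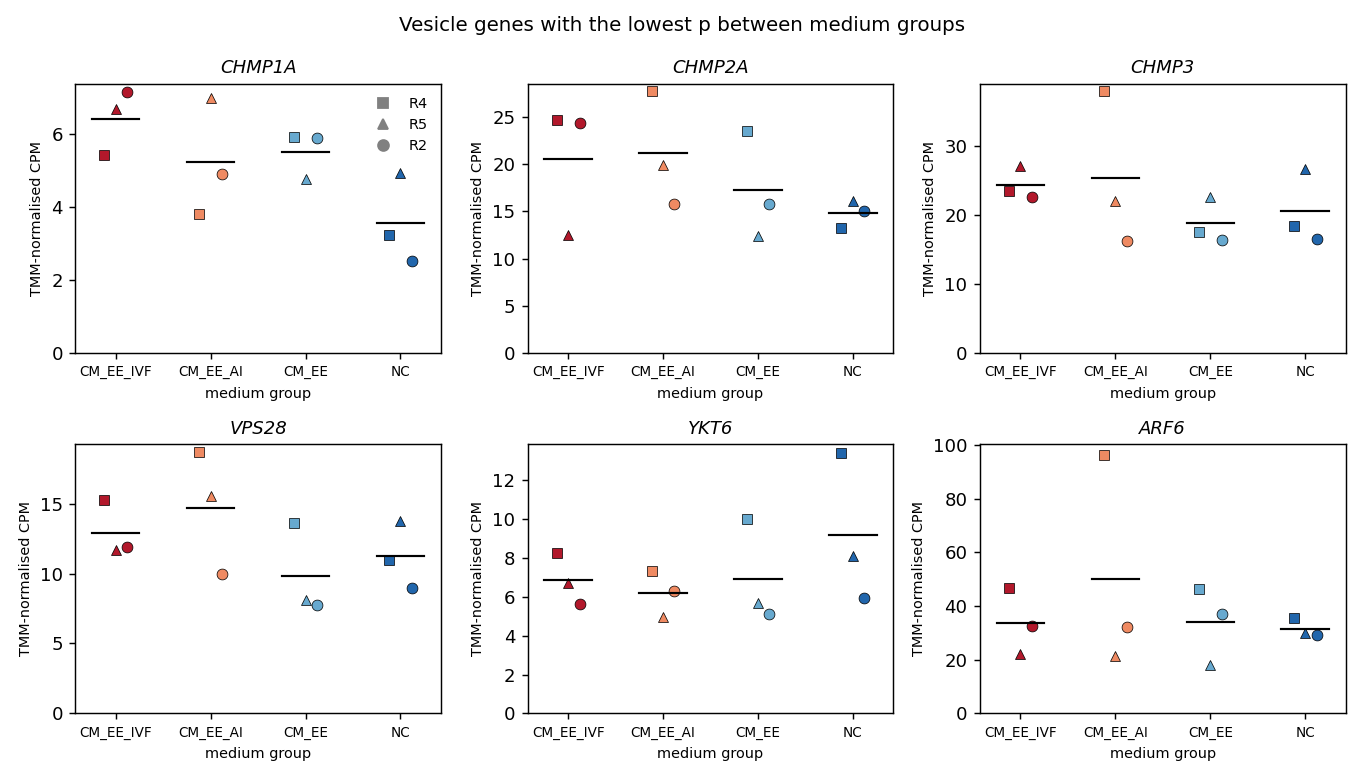
TMM-normalised CPM (vertical axis, from 0) of 6 vesicle genes in CM_EE_IVF, CM_EE_AI, CM_EE and NC. The 6 were taken from the genes with the 3 lowest p of a comparison of media and are not all of them. Each symbol is 1 library and bars are means of 3. CHMP1A in CM_EE_IVF, from 5.41 to 7.14 CPM, lies above NC, from 2.51 to 4.92 CPM, and the CM_EE_AI R4 library stands apart in ARF6 at 96.4 CPM.

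Direction within R numbers was followed as a description. Of the 38 genes, 9 (23.7%) moved the same way in R4, R5 and R2 in CM_EE_IVF against NC, 10 (26.3%) in CM_EE_AI against NC and 6 (15.8%) in CM_EE against NC. The shares of all genes were 24.7%, 25.4% and 15.9%, so the vesicle genes lay near the background. In CM_EE_IVF against CM_EE, 15 of 38 (39.5%) kept 1 direction, beside 31.3% of all genes. Of these, 13 were higher in all 3 R numbers (17.8% of all genes were) and 2, VPS37B and RAB7A, were lower (13.5% of all genes were). The 13 were CD63, CD82, TSPAN4, VPS28, VPS36, CHMP2A, CHMP2B, CHMP3, CHMP5, VPS4A, SMPD3, FLOT1 and FLOT2. In CM_EE_AI against CM_EE, 9 of 38 (23.7%) kept 1 direction, beside 21.9% of all genes, and in CM_EE_IVF against CM_EE_AI 1 of 38 (2.63%) did, beside 15.6%.

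With the R number as a replicate block, which the libraries' shared deviations call for, 0 of 38 vesicle genes and 0 of all genes passed in the 6 comparisons. At an unadjusted p under 0.05, 2 vesicle genes stood out in CM_EE_IVF against NC, with blocked log2 fold changes of 0.88 (95% interval 0.21 to 1.55) for CHMP1A and 0.44 (95% interval 0.01 to 0.88) for TSPAN4, among 817 genes (4.31%). In CM_EE_AI against NC they were VPS4A at 0.47 (95% interval 0.0017 to 0.94) and SDCBP at -0.48 (95% interval -0.95 to -0.01), among 679 genes (3.59%). In CM_EE against NC they were CHMP1A at 0.68 (95% interval 0.0047 to 1.35) and CD9 at 0.55 (95% interval 0.08 to 1.02), among 298 genes (1.57%). Against CM_EE, VPS37B stood at -0.40 (95% interval -0.77 to -0.03) in CM_EE_IVF and -0.40 (95% interval -0.78 to -0.03) in CM_EE_AI. TSPAN4 stood at 0.44 (95% interval 0.01 to 0.87) in CM_EE_IVF, and in CM_EE_AI VPS28 stood at 0.58 (95% interval 0.07 to 1.09) and CD82 at 0.44 (95% interval 0.04 to 0.84). Those 2 comparisons held 976 (5.15%) and 865 (4.57%) genes under that limit, and CM_EE_IVF against CM_EE_AI held 163 (0.861%) with no vesicle gene among them. The lowest blocked adjusted p over all genes and comparisons was 0.947.

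Between R numbers, vesicle genes differed, as did many other genes. The 4 libraries of an R number are 1 of each medium group and share deviations. These tests thus measure the spread within R numbers, and no R number is itself replicated. In the model of group and R number, 13 of 38 (34.2%) passed, beside 5063 of all genes (26.7%), and under RLE size factors (the median-of-ratios scaling of DESeq2) 10 of 38 (26.3%) passed, beside 4872 of the 18939 genes tested, a share near the background. They were CD9, CD82 and TSPAN4 of the tetraspanins, VPS37B of ESCRT-I, CHMP4B and VPS4A of ESCRT-III and its ATPases, syntenin (SDCBP), RAB7A, RAB11A, RAB35, YKT6 and ARF6 of the trafficking genes, and FLOT2. The highest mean belonged to R4 in 9 of the 13, to R5 in 1 and to R2 in 3, and the lowest to R5 in 8 and to R2 in 5. The same shares over all genes called were not taken, so these counts only describe the 13 genes under TMM. Under RLE size factors VPS4A, YKT6 and FLOT2 did not pass. Under 17 other settings of the test, 7 of the 13 passed every time: CD9, CD82, TSPAN4, VPS37B, CHMP4B, SDCBP and RAB7A. RAB11A, RAB35 and ARF6 passed in 16, FLOT2 in 11, VPS4A in 7 and YKT6 in 6. With DESeq2, CD63, STAM, TSG101 and PDCD6IP passed as well.

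Between pairs of R numbers, 5 of 38 vesicle genes (13.2%) passed in R4 against R2, beside 2585 of all genes (13.6%), a share near the background. In R5 against R2, 10 of 38 (26.3%) passed, 5 higher and 5 lower, beside 3931 of all genes (20.8%). In R4 against R5, 8 of 38 (21.1%) passed, all higher in R4, beside 2698 of all genes (14.2%), of which 1642 were higher (8.67%) and 1056 lower. Libraries did not overlap for 7 of 38 vesicle genes in R4 against R2 (18.5% of all genes), 14 in R5 against R2 (31% of all genes) and 9 in R4 against R5 (22.1% of all genes), near the background in R4 against R2 and in R4 against R5. R4 and R5 share the kinds of title prefix, and the same number of vesicle genes, 8, passed when their libraries were fitted alone. The 12 libraries entered each fit. RLE size factors moved the median log2 fold change of all genes in R5 against R2 by -0.11, from 0.08 to -0.02. That scaling gave 1668 higher and 2086 lower genes in R5 against R2, where TMM gave 2178 and 1753, and 1277 and 1100 in R4 against R2, where TMM gave 1651 and 934. DESeq2 gave 2002 higher and 2466 lower in R5 against R2 and 1733 and 1781 in R4 against R2. Among vesicle genes RLE gave 3 higher and 7 lower in R5 against R2, and 2 higher and 2 lower in R4 against R2. Taken relative to the median of all genes, the 5 lower genes of R5 against R2 stood at -2.25 for CD9, -1.01 for CHMP4B, -1.0 for SDCBP, -0.91 for RAB35 and -0.90 for VPS37B on the log2 scale. The 5 higher genes stood at 0.87 for TSPAN4, 0.73 for CD82, 0.69 for FLOT2, 0.51 for VPS4A and 0.47 for HGS.

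**Figure D3:**
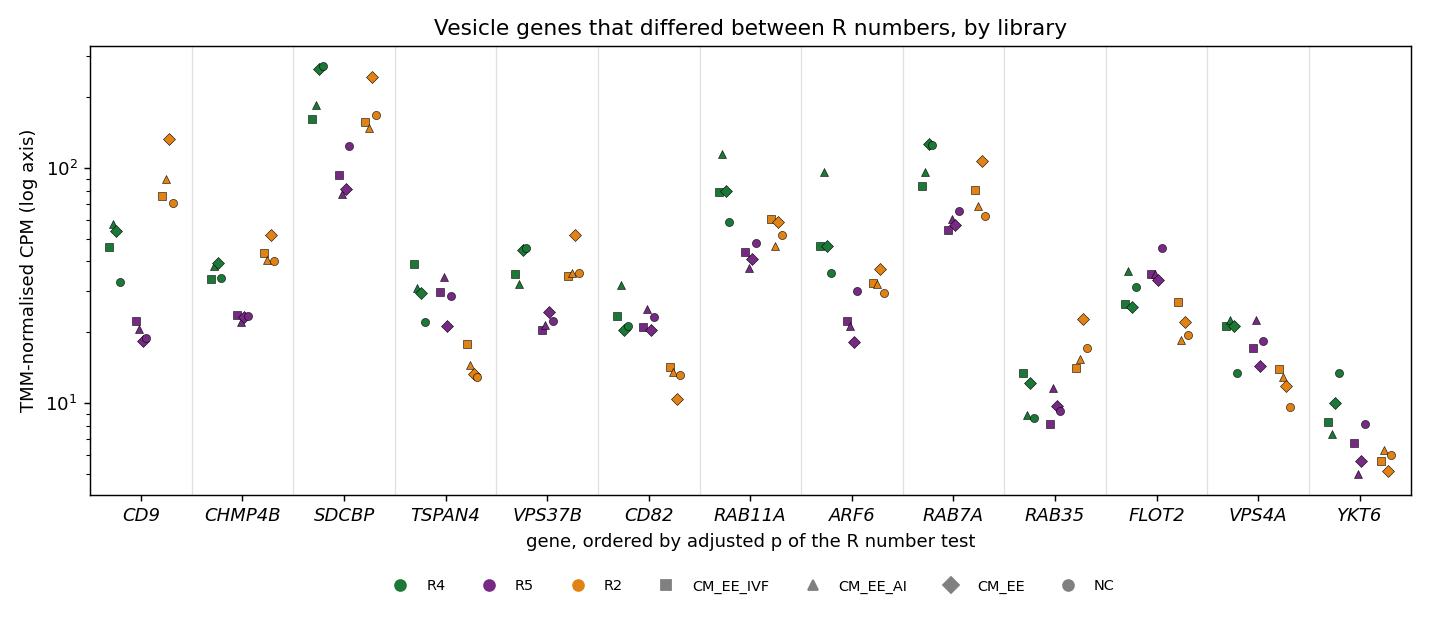
TMM-normalised CPM (vertical log axis) of the 13 vesicle genes that differed between R numbers, 1 symbol per library, coloured by R number and shaped by medium group. CD9 spans 18.3 CPM in R5 to 133 CPM in R2, and the R5 libraries of SDCBP, CHMP4B and VPS37B lie below all others.

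Of the tetraspanins, 3 of 5 differed between R numbers. CD9, a tetraspanin used as a marker of vesicles, had 46.1, 22.3 and 76.3 CPM in CM_EE_IVF, 57.9, 20.6 and 90.2 CPM in CM_EE_AI, 53.8, 18.3 and 133 CPM in CM_EE, and 32.8, 18.9 and 70.97 CPM in NC. Its 4 R5 libraries lay below every R4 library, and these below every R2 library. The log2 fold change was -0.96 (95% interval -1.36 to -0.55) in R4 against R2 and -2.17 (95% interval -2.59 to -1.74) in R5 against R2, with edgeR adjusted p-values of 0.00544 and 2.39e-05. In R4 against R5 it was 1.21 (95% interval 0.80 to 1.63). Between media, the difference of CD9 in CM_EE against NC turned to -0.27 without the CM_EE R2 library, the highest of the 12.

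TSPAN4, a tetraspanin of migrasomes, had 39.04, 29.5 and 17.9 CPM in CM_EE_IVF, 30.97, 34.5 and 14.4 CPM in CM_EE_AI, 29.4, 21.2 and 13.2 CPM in CM_EE, and 22.1, 28.4 and 12.9 CPM in NC. All 8 libraries of R4 and R5 lay above the 4 of R2. Its difference on the log2 scale was 1.04 (95% interval 0.67 to 1.42) in R4 against R2 and 0.96 (95% interval 0.58 to 1.34) in R5 against R2. CD82, a tetraspanin of the plasma membrane and endosomes, shared that order, with 24.3 ± 5.21 CPM in R4, 22.4 ± 2.098 CPM in R5 and 12.8 ± 1.65 CPM in R2 (SD, n = 4). Its log2 fold change was 0.91 (95% interval 0.57 to 1.26) in R4 against R2 and 0.81 (95% interval 0.46 to 1.16) in R5 against R2, so that CD82 and TSPAN4 ran opposite to CD9. Without the CM_EE R2 library CD82 missed the threshold in R5 against R2.

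CD63, the tetraspanin of late endosomes, had 123, 67.3 and 121 CPM in CM_EE_IVF, 213, 58.9 and 84.3 CPM in CM_EE_AI, 92.3, 40.2 and 93.3 CPM in CM_EE, and 58.8, 84.8 and 95.9 CPM in NC. The CM_EE_AI R4 library was high, and without it the log2 fold change of 0.66 (95% interval -0.38 to 1.699) in CM_EE_AI against CM_EE turned to -0.07. Between R numbers it was 0.90 (95% interval 0.20 to 1.59) in R4 against R5, with an edgeR adjusted p of 0.0825. CD81, also used as a vesicle marker, had 50.6, 68.2 and 51.7 CPM in CM_EE_IVF, 48.01, 62.1 and 52.7 CPM in CM_EE_AI, 62.1, 52.2 and 50.6 CPM in CM_EE, and 53.95, 74.9 and 36.2 CPM in NC. Its libraries overlapped between all R numbers, and the log2 fold change in R5 against R2 was 0.43 (95% interval 0.04 to 0.83), with an adjusted p of 0.115.

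ESCRT-0 gathers ubiquitinated cargo on the endosome, and 0 of its 3 genes passed the test over all R numbers by edgeR, with 2 of them past the threshold in 1 pair of R numbers each. HGS, its scaffold, had 14.2, 15.6 and 13.6 CPM in CM_EE_IVF, 16.4, 21.998 and 13.5 CPM in CM_EE_AI, 11.2, 17.8 and 13.5 CPM in CM_EE, and 12.1, 18.4 and 9.78 CPM in NC. R5 was above R2 by 0.55 (95% interval 0.17 to 0.94), with an adjusted p of 0.0440, a call lost in 9 of 12 fits that left out 1 library and under RLE size factors. Its partner STAM was higher in R4 than in R5 by 0.56 (95% interval 0.19 to 0.93), with 33.8 ± 5.43 CPM in R4, 22.8 ± 1.16 CPM in R5 and 28.01 ± 3.95 CPM in R2, a call lost in 8 of those 12 fits. STAM2 had 18.6 ± 3.16 CPM in R4, 16.3 ± 1.92 CPM in R5 and 20.97 ± 4.94 CPM in R2, and its fitted differences did not pass.

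In ESCRT-I, which bridges cargo sorting to budding, 1 of 5 genes differed between R numbers. VPS37B, a subunit of variant ESCRT-I complexes, had 35.5, 20.4 and 34.7 CPM in CM_EE_IVF, 32.1, 21.5 and 35.7 CPM in CM_EE_AI, 44.96, 24.4 and 51.8 CPM in CM_EE, and 45.8, 22.3 and 35.6 CPM in NC. Every R5 library lay below every other library. The fitted log2 fold change came to -0.82 (95% interval -1.14 to -0.49) in R5 against R2 and 0.83 (95% interval 0.50 to 1.15) in R4 against R5, whereas in R4 against R2 it was 0.01 (95% interval -0.31 to 0.33). Between media VPS37B was among the lowest p in CM_EE_IVF against CM_EE, at -0.42 (95% interval -1.22 to 0.38). With the R number as a replicate block it stood at -0.40 (95% interval -0.77 to -0.03).

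TSG101, the core ESCRT-I subunit, had 9.73, 9.59 and 12.9 CPM in CM_EE_IVF, 12.2, 9.83 and 11.98 CPM in CM_EE_AI, 11.9, 8.57 and 12.4 CPM in CM_EE, and 14.4, 8.26 and 14.1 CPM in NC. Its R5 libraries lay below all those of R2, at a log2 fold change of -0.50 (95% interval -0.89 to -0.11) with an edgeR adjusted p of 0.0703, which missed the threshold. It passed in R5 against R2 in DESeq2, at 0.0232, and under RLE size factors, at 0.0360. VPS28 had 14.6 ± 3.22 CPM in R4, 12.2 ± 3.19 CPM in R5 and 9.65 ± 1.74 CPM in R2 (SD, n = 4). VPS37A had 20.7 ± 4.53 CPM in R4, 14.5 ± 1.87 CPM in R5 and 14.6 ± 2.27 CPM in R2, and VPS37C had 6.75 ± 2.18 CPM in R4, 5.39 ± 0.838 CPM in R5 and 4.395 ± 0.888 CPM in R2. These 3 subunits did not pass between R numbers.

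The 3 ESCRT-II genes, whose complex links ESCRT-I to ESCRT-III, did not pass between R numbers. VPS25 had 13.5 ± 4.88 CPM in R4, 11.5 ± 1.29 CPM in R5 and 9.67 ± 1.81 CPM in R2 (SD, n = 4). VPS36 had 22.6 ± 5.27 CPM in R4, 20.5 ± 4.097 CPM in R5 and 19.1 ± 3.85 CPM in R2, and SNF8 had 7.65 ± 1.63 CPM in R4, 6.87 ± 0.939 CPM in R5 and 6.996 ± 0.336 CPM in R2. SNF8 had the narrowest range of all 38 genes, 1.504 times between its lowest and highest library. Its SD of log2 CPM, 0.201, lay just above that of VPS4B, 0.197. All 3 ESCRT-II genes had fitted values above 0 in R4 against R2 and in R4 against R5. The largest was 0.45 (95% interval -0.05 to 0.96) for VPS25 in R4 against R2.

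ESCRT-III polymerises at the neck of the bud, and VPS4 ATPases take it apart. Of these 9 genes, 2 differed between R numbers. CHMP4B, the subunit that forms most of the filament, had 33.5, 23.7 and 43.4 CPM in CM_EE_IVF, 38.4, 22.05 and 40.7 CPM in CM_EE_AI, 39.6, 23.2 and 51.7 CPM in CM_EE, and 33.99, 23.5 and 40.4 CPM in NC. Its R5 libraries, from 22.0 to 23.7 CPM, lay below all others, and its R4 libraries below all of R2. The log2 fold change was -0.92 (95% interval -1.23 to -0.62) in R5 against R2, with an edgeR adjusted p of 0.000637, and 0.65 (95% interval 0.35 to 0.95) in R4 against R5. In R4 against R2 it was -0.27 (95% interval -0.57 to 0.03), with an adjusted p of 0.217.

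VPS4A, 1 of the pair of ATPases, had 21.2, 17.1 and 13.9 CPM in CM_EE_IVF, 22.4, 22.6 and 12.8 CPM in CM_EE_AI, 21.2, 14.3 and 11.8 CPM in CM_EE, and 13.4, 18.4 and 9.58 CPM in NC. Its fitted log2 fold change was 0.69 (95% interval 0.28 to 1.101) in R4 against R2 and 0.60 (95% interval 0.19 to 1.01) in R5 against R2, with edgeR adjusted p-values of 0.0290 and 0.0404. All R5 libraries lay above all those of R2, and NC R4 overlapped R2. These calls were lost in 7 and in 10 of the 12 fits that left out 1 library, and under RLE size factors, with adjusted p-values of 0.0574 and 0.0979. VPS4B, the other ATPase, had 19.7, 16.4 and 21.1 CPM in CM_EE_IVF, 18.97, 19.2 and 17.5 CPM in CM_EE_AI, 14.9, 15.9 and 22.6 CPM in CM_EE, and 16.9, 18.4 and 22.97 CPM in NC. Its libraries overlapped between R numbers and its range was 1.54 times, and it did not pass, at -0.26 (95% interval -0.63 to 0.11) in R4 against R2 and -0.27 (95% interval -0.64 to 0.10) in R5 against R2. The difference between the ATPases was not tested.

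The other 6 ESCRT-III genes, CHMP1A among them, did not pass between R numbers. CHMP2A had 22.3 ± 6.29 CPM in R4, 15.2 ± 3.58 CPM in R5 and 17.8 ± 4.42 CPM in R2 and CHMP3 had 24.4 ± 9.48 CPM in R4, 24.6 ± 2.69 CPM in R5 and 17.97 ± 3.12 CPM in R2 (SD, n = 4). CHMP2B had 11.5 ± 3.18 CPM in R4, 10.1 ± 1.73 CPM in R5 and 12.01 ± 1.504 CPM in R2, and CHMP5, a late subunit that binds the VPS4 cofactor, had 33.1 ± 9.93 CPM in R4, 33.7 ± 6.78 CPM in R5 and 29.2 ± 3.41 CPM in R2. CHMP6, which joins ESCRT-II to the CHMP4 filament, had 3.06 ± 0.691 CPM in R4, 4.06 ± 1.04 CPM in R5 and 3.46 ± 0.529 CPM in R2. CHMP1A, highest in CM_EE_IVF, had 4.58 ± 1.28 CPM in R4, 5.83 ± 1.16 CPM in R5 and 5.103 ± 1.96 CPM in R2, with fitted differences of -0.11 (95% interval -0.69 to 0.46) in R4 against R2 and 0.27 (95% interval -0.31 to 0.85) in R5 against R2.

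Syntenin and ALIX form the route that ties syndecans to ESCRT-III. SDCBP, which encodes syntenin, had 162, 93.2 and 157 CPM in CM_EE_IVF, 186, 77.8 and 148 CPM in CM_EE_AI, 265, 81.8 and 244 CPM in CM_EE, and 271, 125 and 168 CPM in NC. All R5 libraries lay below all others, while R4 and R2 overlapped. On the log2 scale it differed by -0.92 (95% interval -1.33 to -0.50) in R5 against R2 and 1.21 (95% interval 0.79 to 1.62) in R4 against R5, with edgeR adjusted p-values of 0.00462 and 0.00180. PDCD6IP, which encodes ALIX, had 63.9, 62.5 and 88.7 CPM in CM_EE_IVF, 75.4, 64.8 and 74.3 CPM in CM_EE_AI, 80.8, 52.5 and 89.7 CPM in CM_EE, and 82.1, 60.97 and 71.1 CPM in NC. Its R5 libraries lay below those of R2, at a log2 fold change of -0.43 (95% interval -0.77 to -0.08) with an adjusted p of 0.0785, which missed the threshold in edgeR with TMM and passed in DESeq2, at 0.0142, and under RLE size factors, at 0.0401.

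The RAB, ARF and SNARE genes held the most calls, with 5 of 7 differing between R numbers, beside 26.7% of all genes. The call of YKT6 held under 6 of 17 other settings of the test. The longer list of further RAB, effector, SNARE and exocyst genes, given below, lay near the share of all genes. RAB7A, the GTPase of late endosomes on their way to lysosomes, had 108 ± 21.05 CPM in R4, 59.5 ± 4.799 CPM in R5 and 79.8 ± 19.9 CPM in R2 (SD, n = 4). RAB11A, of recycling endosomes, had 82.996 ± 23.2 CPM in R4, 42.7 ± 4.45 CPM in R5 and 54.5 ± 6.56 CPM in R2, and ARF6 had 56.3 ± 27.2 CPM in R4, 22.9 ± 4.94 CPM in R5 and 32.8 ± 3.26 CPM in R2. All 3 were higher in R4 than in R5 with no overlap, by 0.84 (95% interval 0.45 to 1.24) for RAB7A, 0.94 (95% interval 0.50 to 1.38) for RAB11A and 1.23 (95% interval 0.65 to 1.81) for ARF6. Without the CM_EE_AI R5 library, RAB11A and ARF6 missed the threshold in R4 against R5.

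RAB27A, which docks multivesicular bodies at the cell surface, had 56.9, 58.3 and 48.3 CPM in CM_EE_IVF, 79.04, 52.2 and 39.9 CPM in CM_EE_AI, 61.01, 43.1 and 49.6 CPM in CM_EE, and 62.2, 69.5 and 41.6 CPM in NC. The R4 libraries lay above those of R2. It did not pass between R numbers, at 0.52 (95% interval 0.13 to 0.92) in R4 against R2 with an edgeR adjusted p of 0.0786. RAB27B, its close homologue in the same step, had 2.99, 3.68 and 2.85 CPM in CM_EE_IVF, 3.91, 3.197 and 4.53 CPM in CM_EE_AI, 4.66, 2.77 and 5.58 CPM in CM_EE, and 1.93, 3.87 and 6.62 CPM in NC. Its libraries overlapped between R numbers and between media, and the R5 against R2 value was -0.49 (95% interval -1.23 to 0.25).

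RAB35, a GTPase of endosome recycling and of exosome release in a glial cell line, had 13.4, 8.14 and 14.02 CPM in CM_EE_IVF, 8.89, 11.5 and 15.4 CPM in CM_EE_AI, 12.1, 9.67 and 22.9 CPM in CM_EE, and 8.65, 9.26 and 17.1 CPM in NC. Every R2 library lay above every other library. The log2 fold change was -0.83 (95% interval -1.29 to -0.36) in R5 against R2, with an edgeR adjusted p of 0.0164, and -0.68 (95% interval -1.15 to -0.21) in R4 against R2, with 0.0554. Without the CM_EE_IVF R5 library RAB35 missed the threshold in R5 against R2. YKT6 was higher in R4 than in R2 by 0.72 (95% interval 0.25 to 1.19), with an adjusted p of 0.0441. That call was lost in 11 of 12 fits that left out 1 library, under RLE size factors with an adjusted p of 0.0737 and in DESeq2 with 0.0566.

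Of the sphingomyelinases and flotillins, 1 of 4 differed between R numbers. FLOT2, which with FLOT1 scaffolds membrane rafts, had 29.97 ± 5.06 CPM in R4, 37.4 ± 5.4997 CPM in R5 and 21.7 ± 3.67 CPM in R2 (SD, n = 4). Its log2 fold change was 0.78 (95% interval 0.38 to 1.18) in R5 against R2, with an edgeR adjusted p of 0.0102, a call lost in 5 of 12 fits that left out 1 library. FLOT1 had 21.7, 24.1 and 22.5 CPM in CM_EE_IVF, 28.8, 25.9 and 19.9 CPM in CM_EE_AI, 20.3, 21.97 and 18.4 CPM in CM_EE, and 17.4, 22.4 and 20.3 CPM in NC. It overlapped between R numbers and did not pass, at 0.21 (95% interval -0.13 to 0.56) in R5 against R2.

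SMPD3, the neutral sphingomyelinase of ceramide-driven exosome release in mouse cells, had 2.34, 3.34 and 2.51 CPM in CM_EE_IVF, 0.736, 5.01 and 1.88 CPM in CM_EE_AI, 1.18, 3.16 and 1.79 CPM in CM_EE, and 3.08, 3.19 and 1.605 CPM in NC. All R5 libraries lay above all those of R2, at a log2 fold change of 0.94 (95% interval 0.03 to 1.85), and the lowest value was that of CM_EE_AI R4. Its edgeR adjusted p was 0.142. SMPD2, a second neutral sphingomyelinase, had 0.934 ± 0.371 CPM in R4, 1.59 ± 0.689 CPM in R5 and 0.655 ± 0.257 CPM in R2 (SD, n = 4). It had the widest range of the 38 genes, 7.58 times between its lowest and highest library, on 8 to 54 counts per library. By the SD of log2 CPM, CD9 varied most, at 0.97, beside 0.70 for SMPD2. SMPD2 did not pass, at 1.25 (95% interval 0.01 to 2.49) in R5 against R2.

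**Figure D4:**
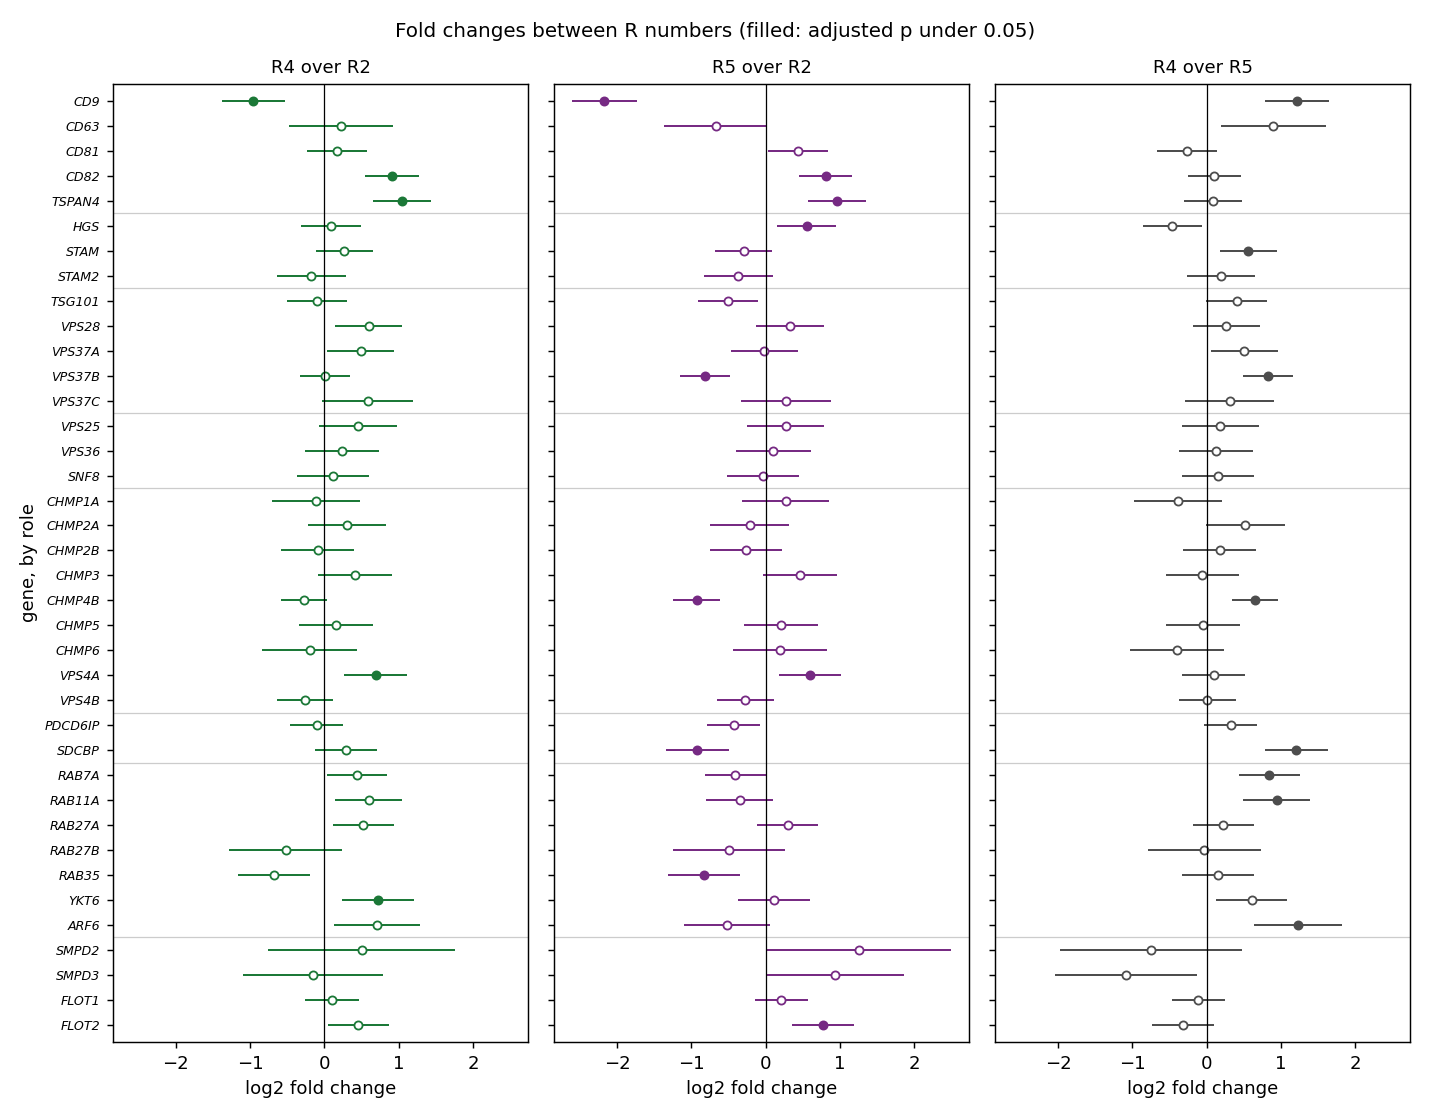
Log2 fold changes (horizontal axis) of the 38 vesicle genes in R4 over R2, R5 over R2 and R4 over R5 with 95% intervals of the edgeR fit; filled points passed an adjusted p of 0.05. CD9 reaches -2.17 in R5 over R2, and the 8 filled points of R4 over R5 all lie above 0.

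Over the 12 libraries, R number took a median of 50.7% of the sum of squares of log2 CPM of the vesicle genes, medium group 10.6% and the rest 36.6%. Over all genes the medians were 40.2%, 13.6% and 38.6%. The R share was above the group share in 32 of 38 vesicle genes (84.2%), beside 73.7% of all genes. R took 93.1% in CHMP4B and 91.0% in CD9. The group share was highest in CHMP1A at 56.5%, followed by FLOT1 at 41.4% and VPS28 at 34.3%. With 2 degrees of freedom for R and 3 for group, these shares describe the libraries and are not tests.

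**Figure D5:**
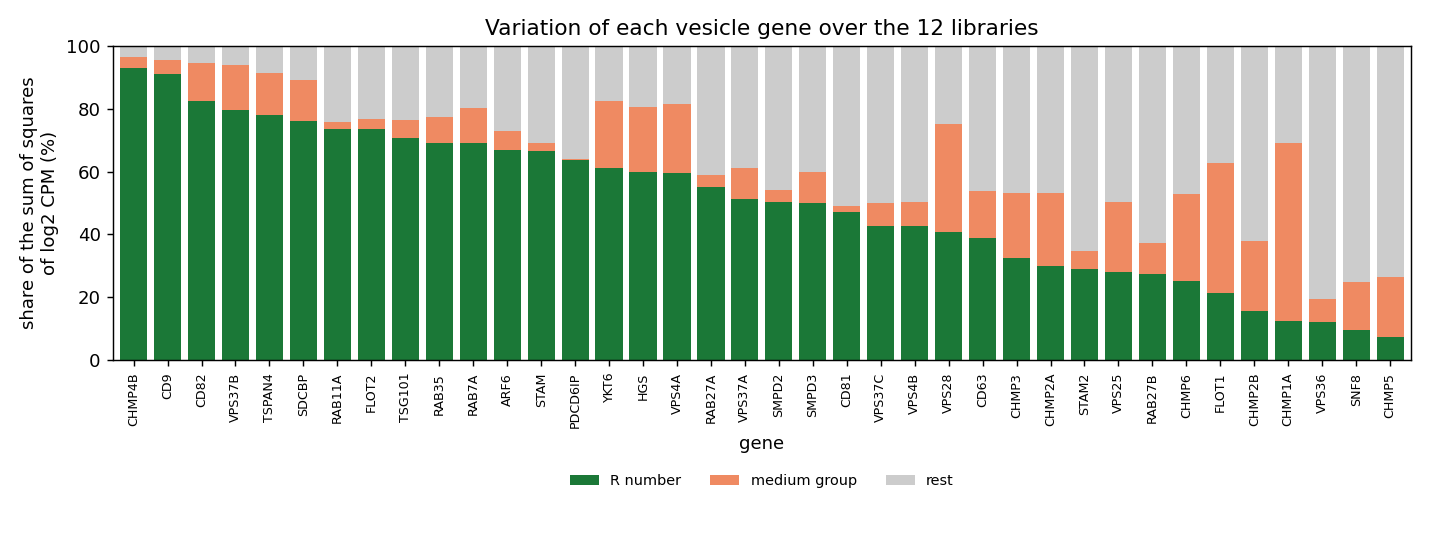
Share of the sum of squares of log2 CPM over the 12 libraries (vertical axis, percent) that goes with R number, with medium group and with the rest, for each of the 38 vesicle genes. R number takes the largest piece in CHMP4B, at 93.1%, and medium group in CHMP1A, at 56.5%.

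Further genes of the same pathways, read from lists that do not hold the 38, gave 0 calls between media in the 6 comparisons. SYTL2, an effector of RAB27 in docking, had the lowest p among them and the only one under 0.05 before adjustment. It had 85.5, 67.9 and 50.4 CPM in CM_EE_IVF, 44.6, 69.3 and 50.96 CPM in CM_EE_AI, 29.7, 46.7 and 41.4 CPM in CM_EE, and 39.5, 55.6 and 38.1 CPM in NC. Its log2 fold change in CM_EE_IVF against CM_EE was 0.79 (95% interval 0.14 to 1.44), with an unadjusted edgeR p of 0.0212, and each CM_EE_IVF library lay above each CM_EE library. Of all genes, 1061 (5.6%) had libraries of these groups that did not overlap, and 285 (1.5%) had an unadjusted p under 0.05. TSPAN17, a tetraspanin, had 0.64 (95% interval -0.04 to 1.33) in CM_EE_AI against CM_EE, and CD53, a tetraspanin of blood cells, had 0.94 (95% interval -0.35 to 2.24) in CM_EE against NC. ARRDC1, which recruits TSG101 to buds at the cell surface, had 0.65 (95% interval -0.12 to 1.41) in CM_EE_IVF against NC, and the syndecan SDC2 had -0.51 (95% interval -1.14 to 0.12) in CM_EE_AI against NC. NEDD4, a ubiquitin ligase, had -0.51 (95% interval -1.41 to 0.39) in CM_EE_IVF against NC, and USP8, an enzyme that removes ubiquitin, had 0.33 (95% interval -0.26 to 0.92) in CM_EE_AI against CM_EE. TBC1D10B, a GTPase-activating protein for RABs, had 0.48 (95% interval -0.07 to 1.04) in CM_EE against NC.

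Between R numbers, 10 of 17 further ESCRT genes and regulators differed (58.8%), 4 of 15 further tetraspanins (26.7%), 7 of 29 further RAB, effector, SNARE and exocyst genes (24.1%) and 10 of 26 syndecan, budding and lipid genes (38.5%), beside 26.7% of all genes. UBAP1, an ESCRT-I subunit, was higher in R4 than in R5 by 1.39 (95% interval 1.01 to 1.78) and lower in R5 than in R2, at -0.998 (95% interval -1.38 to -0.62). CHMP4C, a paralogue of CHMP4B, was higher than in R2 both in R4, by 1.58 (95% interval 1.04 to 2.13), and in R5, by 1.27 (95% interval 0.72 to 1.81). CHMP4A was higher in R5 than in R2 by 1.14 (95% interval 0.59 to 1.697), so the 3 CHMP4 genes did not share a direction in R5 against R2. The other 7 of the 10 were MVB12B, PTPN23, CC2D1A, CC2D1B, NEDD4, ITCH and LITAF.

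Of the 4 syndecans, whose tails bind syntenin, SDC1, SDC3 and SDC4 differed between R numbers and SDC2 did not pass, with 41.2 ± 14.9 CPM in R4, 32.9 ± 3.89 CPM in R5 and 32.1 ± 4.12 CPM in R2 (SD, n = 4). SDC4 had 283 ± 72.9 CPM in R4, 42.8 ± 10.01 CPM in R5 and 93.98 ± 20.3 CPM in R2, a log2 fold change of 2.696 (95% interval 2.16 to 3.23) in R4 against R5. SDC1 had 4.03 ± 1.52 CPM in R4, 1.61 ± 0.519 CPM in R5 and 11.03 ± 3.96 CPM in R2, a log2 fold change of -2.72 (95% interval -3.48 to -1.96) in R5 against R2. SDC3 was higher in R4 than in R2, with a 95% interval of the log2 fold change of 0.53 to 1.67. TFEB, a transcription factor of lysosome genes, had 20.7 ± 12.2 CPM in R4, 41.2 ± 6.13 CPM in R5 and 5.47 ± 0.825 CPM in R2 and ran opposite to SDC1, with 2.88 (95% interval 2.17 to 3.59) in R5 against R2. ANO6, CAV1, STOM, MITF, ANXA2 and ANXA5 were the other genes of that list that differed.

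Of the further tetraspanins, TSPAN18 had 83.996 ± 10.6 CPM in R4, 91.03 ± 6.31 CPM in R5 and 300.0 ± 92.2 CPM in R2 (SD, n = 4), and its 8 libraries of R4 and R5 lay below those of R2, at -1.82 (95% interval -2.25 to -1.39) in R4 against R2. TSPAN15 was lower in R5 than in R2, at -1.96 (95% interval -2.44 to -1.49), TSPAN13 higher in R4 than in R2, by 1.19 (95% interval 0.74 to 1.63), and TSPAN3 higher in R4 than in R5, by 0.95 (95% interval 0.34 to 1.56). Among RAB and SNARE genes, RAB31 was lower in R5 than in R2, at -1.304 (95% interval -1.697 to -0.91), and STX6 higher in R4 than in R5, by 1.08 (95% interval 0.68 to 1.48). VAMP8, a SNARE of late endosomes, was higher than in R2 in both R4, by 1.23 (95% interval 0.62 to 1.84), and R5, by 1.27 (95% interval 0.67 to 1.87). RAB2B, RAB9A, EXOC4 and TBC1D10A were the other genes of that list that differed.

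Markers of several cell types, though not of all, differed between R numbers as well. Of the markers tested, 7 of 10 endothelial, 6 of 8 fibroblast and 6 of 8 smooth muscle and pericyte markers differed, beside 26.7% of all genes. So did 3 of 5 red blood cell and platelet and 2 of 5 endometrial epithelium markers. Of the immune cell lists, 1 of 7 macrophage and 1 of 8 T cell markers did. Of 11 luteal steroidogenic markers, 10 differed between R numbers, 6 of them higher and 1 lower in R4 than in R2, and 6 higher and 1 lower in R4 than in R5. Endothelial markers, 10 of 10 in the table, summed to 891 to 1321 CPM in R4, 912 to 1275 CPM in R5 and 1515 to 1943 CPM in R2. Fibroblast markers, 8 of 8, summed to 250.1 to 1000.2 CPM in R4, 335 to 414 CPM in R5 and 638 to 1023 CPM in R2. Smooth muscle and pericyte markers, 8 of 8, summed to 378 to 656 CPM in R4, 227 to 302 CPM in R5 and 364 to 507 CPM in R2. R2 thus held the top endothelial sums, without overlap with R4 or R5.

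Markers of blood cells and of the endometrial epithelium were summed in the same way. Red blood cell and platelet markers, 6 of 9 in the table, summed to 6.29 to 11.3 CPM in R4, 11.3 to 17.4 CPM in R5 and 37.7 to 63.1 CPM in R2. Macrophage markers, 7 of 8, summed to 20.3 to 45.4 CPM in R4, 19.8 to 21.7 CPM in R5 and 18.004 to 23.02 CPM in R2, and T cell markers, 8 of 8, to 12.4 to 15.4 CPM in R4, 17.3 to 20.1 CPM in R5 and 9.35 to 15.2 CPM in R2. Endometrial epithelium markers, 5 of 8, summed to 20.3 to 111 CPM in R4, 7.25 to 10.4 CPM in R5 and 15.4 to 25.9 CPM in R2, and the top value was again that of CM_EE_AI R4. KRT19, PAEP and UPTI of that list were not in the table, so the sum rests on KRT8, KRT18, CDH1, MUC1 and EPCAM. Of these markers, KRT8 reached 82.4 CPM and CDH1 25.3 CPM. The highest values of KRT18, MUC1 and EPCAM were 3.74, 0.985 and 0.620 CPM. Which cells held these transcripts, and whether endometrial cells were present, was not tested. Of the endothelial markers, 2 were called higher and 6 lower in R4 than in R2, and 1 higher and 5 lower in R5 than in R2. Of the 13 vesicle genes that differed between R numbers, CD9, CHMP4B and RAB35 had their highest mean in R2 and the others in R4 or R5. No share over all genes was taken beside this. The part of these markers, and of the mitochondrial share, in the differences of the vesicle genes was not tested.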

How the data were processed

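Polyadenylated RNA of 12 corpus luteum libraries was measured. The authors deposited whole counts per gene; none of the 12 deposited columns held fractional expected counts. Per the submitters' processing notes, STAR, featureCounts, DESeq2, cutadapt and Trim Galore were used; no genome build is named there, nor how paired titles were joined. The lowest row sum was 36 counts, so low genes had already been removed. The 9 endometrial libraries were not analysed here. Counts were tested in R 4.3.3 with edgeR 4.0.16 (quasi-likelihood, filterByExpr by group, TMM, Benjamini-Hochberg, 0.05) and limma 3.58.1, by group, and for R numbers by group plus R number; DESeq2 1.42.0 was an alternative, and figures used Python 3.11.15 with matplotlib 3.10.9. Scripts were tested on simulated data. Members, lists and rules were chosen with earlier results of these data known. Genes given by library were core members, the 3 lowest p per group comparison and the 5 lowest in the R number test; further lists give the 2 lowest p between media and, between R numbers, every gene past the threshold, some by name alone. Deviations from group means correlated at 0.262 to 0.704 over all 18 pairs of libraries sharing an R number, so R numbers pair the samples; the other 36 pairs across groups ranged from -0.563 to 0.0594. The fits with R4 and R5 alone, the values within R numbers and the counts without CM_EE_AI R4 were chosen after seeing the data.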

Additional observations from a re-analysis of the deposited data

How the results depend on the processing

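In the 6 comparisons of media, 0 genes and 0 vesicle genes passed under DESeq2, RLE size factors, scaling without mitochondrial and rRNA genes, no filter, the replicate block, fits of the 2 groups alone and each library left out. With the R number as a replicate block, the lowest edgeR adjusted p was 0.947, and the block changed no call between media. The share of counts of the vesicle genes in CM_EE against NC turned from -0.00193 to 0.00516 percentage points once mitochondrial and rRNA genes were left out. With 1 library left out, that difference ran from -0.0198 to 0.0181 in CM_EE, -0.0136 to 0.0206 in CM_EE_AI and -0.00366 to 0.0209 in CM_EE_IVF. The log2 fold change of CD9 in CM_EE against NC ran from -0.27 to 1.44, below 0 without CM_EE R2. Without CM_EE_AI R4, CD63 in CM_EE_AI against CM_EE (-0.0727 to 0.98), ARF6 (-0.93 to 0.34) and VPS25 (-0.47 to 0.0546) in CM_EE_IVF against CM_EE_AI changed sign. Between R numbers, vesicle genes called numbered 9 to 14 over all R numbers, 3 to 7 in R4 against R2 (3 without NC R2, CM_EE R4 or CM_EE R2), 7 to 11 in R5 against R2 and 5 to 9 in R4 against R5 (5 without CM_EE_AI R5). All genes called numbered 3374 to 5141 over all R numbers, 1391 to 2526 in R4 against R2 (1391 without CM_EE R4), 2441 to 4347 in R5 against R2 and 1214 to 2949 in R4 against R5. The lowest counts over all R numbers, in R5 against R2 and in R4 against R5 were those without CM_EE_AI R5. R4 against R5 also fell to 1412 without CM_EE R4, 1588 without CM_EE R5 and 1730 without CM_EE_AI R4. With no group term, 9 vesicle genes passed in R4 against R2. The cause of these changes was not tested. With 3 libraries a group, the intervals of the vesicle genes between media limit what can be seen.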

Other observations

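Within R2, the deviations of the libraries from their group means fell into 2 pairs. CM_EE_IVF and CM_EE correlated at 0.688 and CM_EE_AI and NC at 0.704, whereas the 4 cross pairs lay between 0.262 and 0.302, over 14660 genes of the same libraries. In R5, the highest correlation was that of CM_EE_IVF and CM_EE, 0.6997, and the other 5 pairs lay between 0.287 and 0.579. In R4, the highest was that of CM_EE_AI and CM_EE, 0.530, with CM_EE_IVF and CM_EE at 0.478.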
